A study of Mus musculus with 3 samples.

Results

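Heat shock and endoplasmic reticulum (ER) chaperone genes were examined as 42 listed genes, of which 18 belong to the heat shock system of the cytosol and mitochondria and 24 to the ER. The rule that picked them used gene names and functions and no measured value, although earlier results of these data were known when it was set. Probes named for 41 of the 42 were found among the 20266 genes named on the arrays, and all 41 were measured on all 3 arrays, among 13626 measured genes. The exception was Hspa1b, an inducible Hsp70 gene, for which no probe was named here. The 41 genes had 50 probes, 23 for heat shock genes and 27 for ER genes. The data came from livers of C57BL/6J mice (written c57BL6/J in the labels) that expressed human YAP, the transcriptional coactivator restrained by the Hippo kinases. The WT group had wild-type YAP, and the others had 1SA or 2SA, mutants whose serine-to-alanine changes let YAP escape that restraint. All 3 groups had received a plasmid by hydrodynamic tail vein injection (HTVi) into young adult males whose tails were warmed in a water bath, and the liver was taken at 2 days. The plasmid drove Myc-tagged YAP from an AFP enhancer and albumin promoter active in hepatocytes, so that a fraction of the hepatocytes carried it and whole liver RNA also held the cells that did not. No liver without injection was among the samples used here. There was 1 array per group, the sources do not say how many animals an array stands for, and no difference below has a replicate or a test.

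Chaperones bind unfolded proteins and keep them from aggregating. In the cytosol and nucleus, unfolded protein releases the transcription factor HSF1. HSF1 induces Hsp70 (Hspa1a, Hspa1b), Hsp40, Hsp90, their co-chaperones and small heat shock proteins through heat shock elements, which are repeats of GAA and its reverse complement TTC. In the ER, unfolded protein draws the chaperone BiP (Hspa5) away from 3 sensors, IRE1 (Ern1), ATF6 and PERK. IRE1 splices Xbp1 mRNA, ATF6 is cut to a transcription factor, and PERK slows translation and raises ATF4 and then CHOP (Ddit3). Spliced XBP1 and cut ATF6 induce ER chaperones and the machinery that returns misfolded proteins to the cytosol for degradation (ERAD), in part through the ER stress element. Hepatocytes secrete most plasma proteins and rely heavily on this system.

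Promoter stretches are shown first, because the paired heat shock unit and the ER stress element were each found in 1 arm only, though not in all its genes. RefSeq windows of 250 bases before the annotated start, on mouse build GRCm38.p6, were found for 35 of the 42 genes. Hspa8, Hsp90aa1, Hsp90ab1, Hsf1, Hyou1, Manf and Atf6 had no entry. Among heat shock genes, the paired heat shock unit GAANNTTC or TTCNNGAA, read on both strands, was found in 7 of 14 (50%), against 14.5% of 27025 genes with windows and 0 of 21 ER genes. A run of 1 more unit, GAANNTTCNNGAA or TTCNNGAANNTTC, was found in 2 of the 14, Hspd1 and Hspe1, against 0.514% of all genes. The stretches below are written 5′ to 3′ on the gene's own strand, with the elements in capitals and neighbouring bases in lower case. The windows of the neighbouring genes Hspa1a and Hspa1b were the same at 247 of 250 bases (98.8%). Hspd1 and Hspe1 lie head to head and share 1 stretch, read from opposite strands. A gene with several windows was counted where any of them matched. The paired unit lay in 1 of 3 windows of Dnaja1 and in 1 of 2 windows of Hspd1.
Hspa1a, chr17:34972243-34972270, minus strand: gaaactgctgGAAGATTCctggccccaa
Hspa1b, chr17:34959325-34959352, minus strand: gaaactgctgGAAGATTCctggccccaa
Hspb1, chr5:135887792-135887819, plus strand: ttcaacaagaGAAGTTTCcagatggggg
Hspb1, chr5:135887812-135887839, plus strand: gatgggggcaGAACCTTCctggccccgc
Hsph1, chr5:149636352-149636379, minus strand: ggtagaatctTTCTCGAAggctcgagaa
Dnaja1, chr4:40722334-40722361, plus strand: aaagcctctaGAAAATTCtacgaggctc
Hspd1, chr1:55088049-55088086, minus strand: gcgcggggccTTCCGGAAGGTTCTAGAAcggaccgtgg
Hspe1, chr1:55088049-55088086, plus strand: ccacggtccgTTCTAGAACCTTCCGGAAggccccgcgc

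The ER stress element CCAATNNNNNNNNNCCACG, read on both strands, was found in 9 of 21 ER genes (42.9%), against 35 of 27025 genes (0.13%), 18 of 10869 measured genes (0.166%) and 0 of 14 heat shock genes. Its ends are a CCAAT box and a CCACG core, which also occur alone. CCAAT was present in 90.5% of the ER genes and 37.5% of all genes, and CCACG in 76.2% and 31.0%. The related element ATTGGNCCACG was found in Herpud1 alone of the 21 (0.037% of all genes), and TGACGTGG in none of the 35 genes (0.603% of all genes). These are matches of letters in a fixed window, and the letters of all 7 searches were chosen with the arrays' values known. The 9 genes are shown because they hold the element in full, some as CCAAT first and some on the opposite strand, where it reads CGTGG first.
Hspa5, chr2:34772015-34772053, plus strand: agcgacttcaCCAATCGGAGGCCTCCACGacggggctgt
Hsp90b1, chr10:86705628-86705666, minus strand: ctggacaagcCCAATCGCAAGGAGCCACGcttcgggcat
Hsp90b1, chr10:86705523-86705561, minus strand: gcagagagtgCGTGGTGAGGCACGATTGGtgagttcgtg
Calr, chr8:84847065-84847103, minus strand: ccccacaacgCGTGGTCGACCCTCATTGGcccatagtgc
Canx, chr11:50325790-50325828, minus strand: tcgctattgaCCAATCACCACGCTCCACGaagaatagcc
Pdia6, chr12:17266481-17266519, plus strand: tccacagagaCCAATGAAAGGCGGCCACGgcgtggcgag
Creld2, chr15:88819510-88819548, plus strand: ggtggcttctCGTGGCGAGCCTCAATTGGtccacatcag
Dnajc3, chr14:118937817-118937855, plus strand: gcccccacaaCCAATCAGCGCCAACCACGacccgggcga
Syvn1, chr19:6046522-6046560, plus strand: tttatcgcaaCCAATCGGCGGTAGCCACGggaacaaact
Derl3, chr10:75893232-75893270, plus strand: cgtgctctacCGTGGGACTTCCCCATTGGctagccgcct

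**Figure D1:**
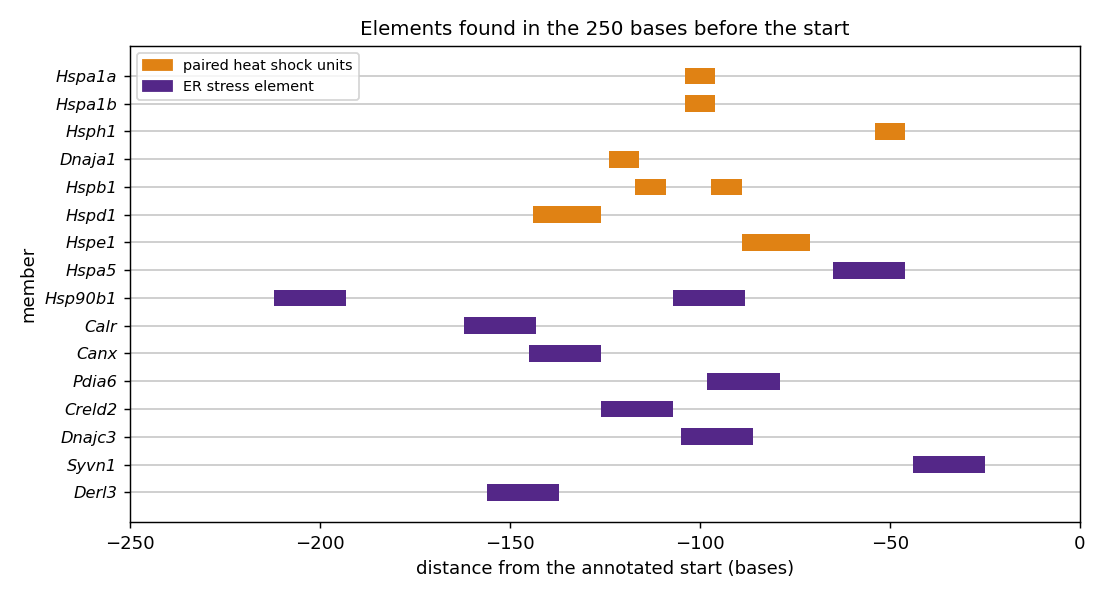
Positions of the paired heat shock units (orange, 7 genes) and the ER stress element (purple, 9 genes) in the 250 bases before the annotated start, in bases from the start at 0, 1 line per gene. No gene holds both colours, Hspb1 and Hsp90b1 hold 2 separate bars each, and the longer orange bars of Hspd1 and Hspe1 are runs of overlapping units.

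Levels below are deposited intensities divided by the array's own 75th percentile of intensity over non-control spots, at 290.8 for the WT array, 275.7 for 1SA and 319.5 for 2SA. Such a scaled level of 1 means a probe as bright as that percentile, and levels of different genes are not compared, since probes differ in brightness at the same amount of RNA. Differences are in log2 of the scaled level. A gene was counted as called when the difference was at least 1.5-fold (0.58 in log2). The only repeat measurement was between spots of 1 probe on 1 array, with a median SD of 0.07 in log2, which gives a difference an SD of 0.10. A limit of 2 such SDs, 0.21, is used below to say that a difference exceeded the error between spots. It says nothing of the spread between animals. Creld2, the only one of the 41 genes with 10 spots, ranged from 4584 to 5275 in deposited intensity over its WT spots, from 4777 to 5414 over its 1SA spots and from 5533 to 6009 over its 2SA spots. These ranges are before scaling and are not compared between arrays, and its scaled levels were 17.2 in WT, 18.1 in 1SA and 17.8 in 2SA. All 14 hepatocyte markers listed were measured on all 3 arrays, no spot was saturated, and all arrays lay on 1 slide.

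Few of the 41 genes differed between the groups by 1.5-fold. In 1SA against WT, 3 of 41 were called (7.32%), 1 higher and 2 lower, where 7.75% of all measured genes were called, 3.08% higher and 4.67% lower. In 2SA against WT, 1 of 41 was called (2.44%), and lower, against 6.8% of all measured genes, 3.79% higher and 3.02% lower. In 2SA against 1SA, 4 of 41 were called (9.76%), 2 higher and 2 lower, against 11.6% of all measured genes, 6.99% higher and 4.56% lower. Most of the 41 are bright, and among genes brighter than the median gene, a background chosen after the values were seen, the shares called were 4.21%, 3.36% and 6.77%. The 4 genes behind all these calls were Hspa1a and Hspb1 of the heat shock group, and Derl3 and Ddit3 of the ER group. The SD of the 41 differences was 0.24, 0.25 and 0.38 in these comparisons, and 0.34, 0.33 and 0.42 over all measured genes.

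**Figure D2:**
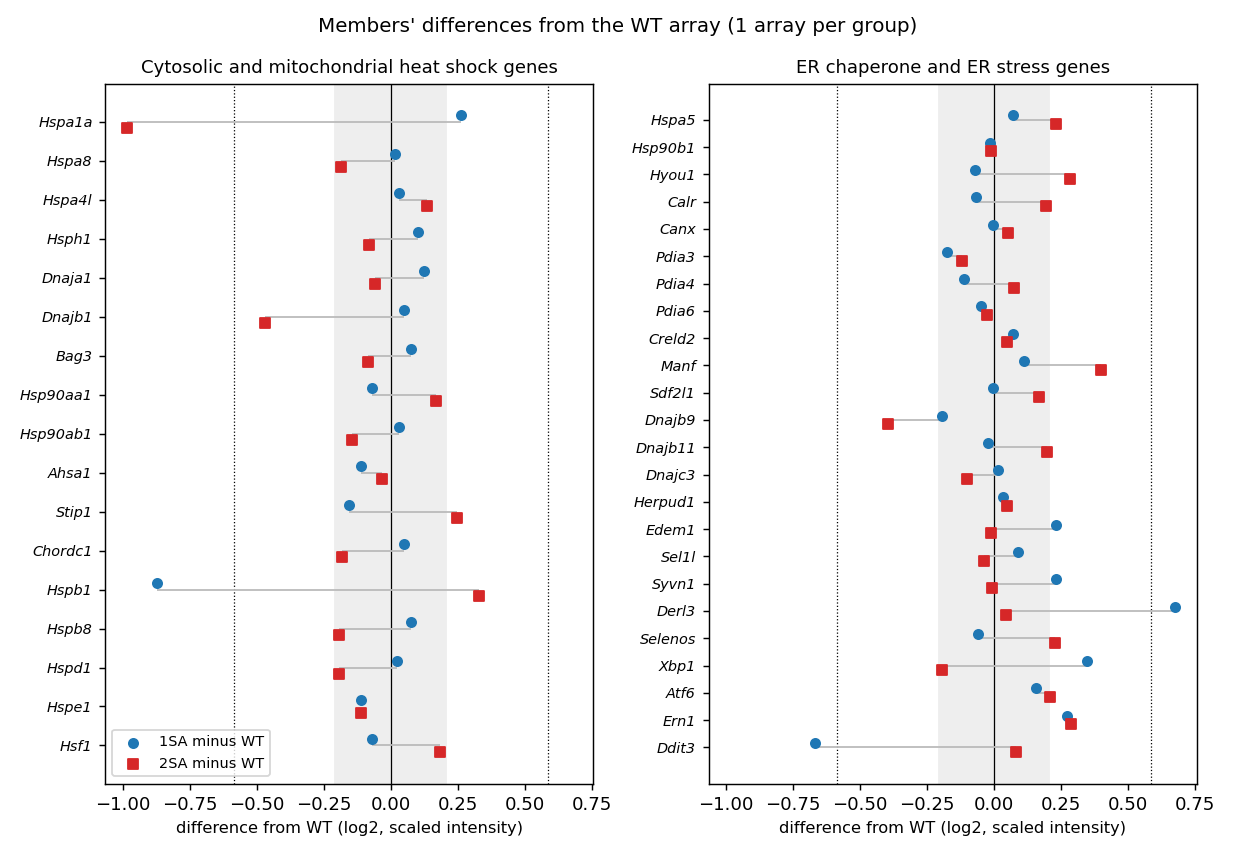
Difference from the WT array, in log2 of scaled intensity, for the 17 heat shock genes (left) and the 24 ER genes (right), with 1SA as blue circles and 2SA as red squares, 1 array each. The grey band is the limit of 0.21 from repeated spots and the dotted lines are 1.5-fold. Hspa1a in 2SA, Hspb1 and Ddit3 in 1SA, and Derl3 in 1SA lie past the dotted lines, and most other genes lie in or near the band.

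The heat shock genes centred slightly below the other arrays in 2SA, with members on both sides. Their median difference was 0.03 in 1SA against WT, -0.08 in 2SA against WT and -0.18 in 2SA against 1SA, while the medians of all measured genes were -0.002, -0.03 and -0.03. Of the 17 genes, 11 were above WT in 1SA (64.7%) and 5 in 2SA (29.4%), where 49.7% and 43.6% of all measured genes were. Among genes brighter than the median gene, 54.9% and 41.9% were above WT, with medians of 0.02 and -0.03. Beyond the limit from repeated spots, 2 genes were above and 2 below WT in 2SA. The lowest of the 3 levels fell on the 2SA array for 10 of the 17 genes (58.8%), for 42.1% of the 13626 measured genes and for 45.9% of the brighter ones. The order was not shared by all, since 7 of the 17 were higher in 2SA than in 1SA (41.2%), near the 45.6% of all measured genes. Differences beyond the limit from repeated spots were found for 2, 4 and 9 of the 17 genes in the 3 comparisons (11.8%, 23.5% and 52.9%), and for 35.1%, 35.0% and 45.5% of all measured genes. The median of 2SA against 1SA depended on the scaling and was -0.05 after quantile normalisation. In whole liver RNA, a lower level can come from fewer cells of a type or from less RNA per cell, and these cannot be told apart.

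Hspa1a, the stress-inducible Hsp70 and a classic HSF1 target, was the heat shock gene furthest below WT in 2SA. Its scaled level was 0.338 in WT, 0.406 in 1SA and 0.171 in 2SA, from 1 spot per array with deposited intensities of 98.4, 112 and 54.7. The level was thus low in 2SA, and WT and 1SA lay closer together. The difference of 2SA from WT was -0.98 (1.98-fold lower), larger in size than that of 98.2% of measured genes, and that of 2SA from 1SA was -1.24 (2.37-fold lower). In 1SA it was 0.26 above WT, short of 1.5-fold. Only 19.2% of measured genes were dimmer, and normexp background correction, which changes dim probes most, gave -0.62 from WT to 2SA and -0.85 from 1SA to 2SA, both still past 1.5-fold. Hspa1a and Hspa1b are known to encode nearly the same protein, and whether the probe separates their transcripts was not tested, since neither probe nor transcript sequences were used here.

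Dnajb1, the Hsp40 that works with Hsp70 and is itself an HSF1 target, followed the same order. Its scaled level was 12.5 in WT, 12.9 in 1SA and 9.0 in 2SA. Here too 2SA was the low array, by -0.47 against WT and -0.52 against 1SA, which did not reach 1.5-fold. Dnaja1, the second Hsp40, had levels of 73.6, 80.2 and 70.7, and its difference of 2SA from WT, -0.06, was within the error between spots. Bag3, which binds Hsp70 and couples it to small heat shock proteins and autophagy, had levels of 8.10, 8.54 and 7.64. The order of 1SA, WT, 2SA from high to low was the same for these genes, but the differences of Bag3 and of the brighter Dnaja1 probe were within 0.21. The dimmer Dnaja1 probe had the same order, with 2SA below WT by -0.22 and below 1SA by -0.40.

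The constitutive Hsp70 and its exchange factors moved less. Hspa8, the constitutive Hsp70 (Hsc70), had a scaled level of 283 in WT, 286 in 1SA and 249 in 2SA. The level in 2SA was lower than in WT by -0.19, and its 3 probes gave -0.19, -0.15 and -0.24. All 3 probes thus had 2SA below WT, but only the last difference exceeded the limit from repeated spots. Hsph1, an Hsp110 that renews the nucleotide on Hsp70, had levels of 3.74, 4.01 and 3.53. Hspa4l, of the same Hsp110 family, ran the other way in 2SA with levels of 2.41, 2.46 and 2.64. None of the differences of Hspa4l or of the brighter Hsph1 probe exceeded 0.21, while the dimmer Hsph1 probe was below WT in 2SA by -0.23.

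The Hsp90 genes and their partners did not share an order. Hsp90aa1, the inducible cytosolic Hsp90, had a scaled level of 20.2 in WT, 19.2 in 1SA and 22.6 in 2SA, so that 2SA was above WT by 0.17 and above 1SA by 0.24. Hsp90ab1, the constitutive form, had levels of 144, 147 and 130, and 2SA was below WT by -0.15. The inducible form was therefore highest in 2SA and the constitutive form lowest there, by amounts near the error between spots. Stip1, the adaptor that passes clients from Hsp70 to Hsp90, had levels of 4.19, 3.75 and 4.96. Its 2SA level was above WT by 0.25 and above 1SA by 0.40. Ahsa1, which stimulates the Hsp90 ATPase, had levels of 45.8, 42.4 and 44.7, with no difference beyond 0.21. Chordc1, another Hsp90 partner, had levels of 3.36, 3.48 and 2.96 and was lower in 2SA than in 1SA by -0.23. Hsf1 itself, which is controlled mainly at the protein level, had levels of 1.97, 1.88 and 2.24. Its 2SA level was above WT by 0.18 and above 1SA by 0.25.

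Hspb1, a small heat shock protein (Hsp27 in humans) that holds unfolded proteins and binds actin filaments, had the widest range of the heat shock genes after Hspa1a. Its scaled level was 24.3 in WT, 13.3 in 1SA and 30.6 in 2SA. The 1SA array was low and the 2SA array high, on either side of WT. In 1SA it was 1.83-fold lower than in WT (-0.87), larger in size than the difference of 97.3% of measured genes. In 2SA it was above WT by 0.33, short of 1.5-fold, and 2.30-fold above 1SA (1.20). Hspa1a and Hspb1 both carry the paired unit shown above and had opposite orders in 1SA and 2SA. Hspb8, the small heat shock protein that works with Bag3, had levels of 18.9, 19.9 and 16.5, and its 2SA level was below that of 1SA by -0.27. Its order over the arrays was that of Bag3, not that of Hspb1.

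The mitochondrial chaperonin Hspd1 (Hsp60) and its lid Hspe1 (Hsp10) are transcribed from the shared stretch printed above. Hspd1 had scaled levels of 97.6 in WT, 99.1 in 1SA and 85.4 in 2SA. Hspe1 had levels of 69.2, 64.1 and 64.1. Both were therefore below WT in 2SA, by -0.19 and -0.11, and they parted in 1SA, where Hspd1 was at 0.02 and Hspe1 at -0.11. The 3 probes of Hspe1 gave -0.11, -0.18 and -0.32 for 2SA against WT, a wider spread than the difference between the pair. Over the 6 measured heat shock genes with a paired unit the median differences were 0.06, -0.10 and -0.18, and over the 7 with a window and without one 0.05, -0.08 and -0.16. The medians of the genes with and without the unit were thus close in each comparison.

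**Figure D3:**
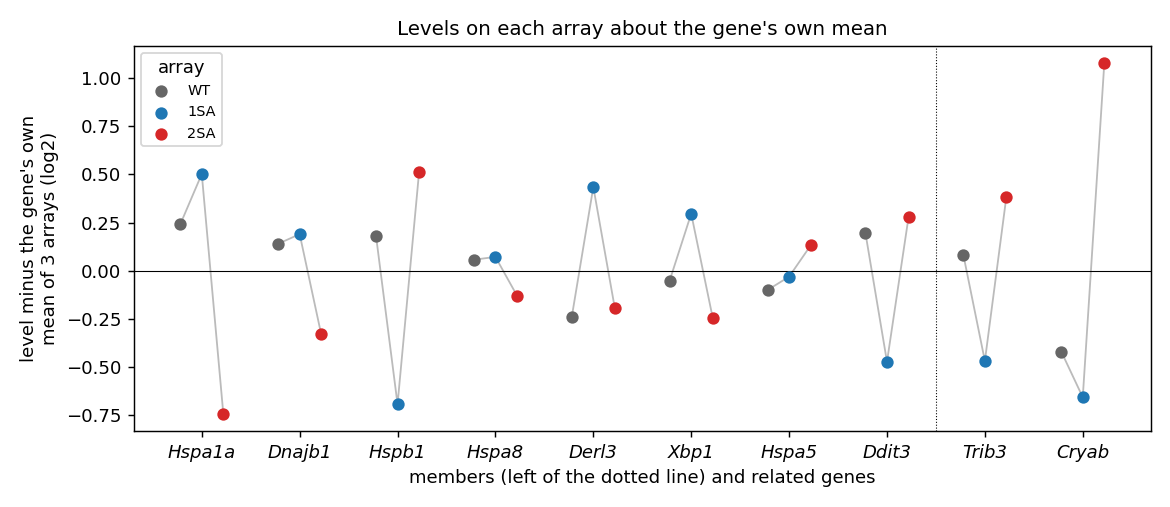
Level on each array minus the gene's own mean over the 3 arrays, in log2, for 8 of the 41 genes (left of the dotted line) and for Trib3 and Cryab of the related lists (right), with WT in grey, 1SA in blue and 2SA in red, 1 array each. The 2SA point is lowest for Hspa1a, Dnajb1, Hspa8 and Xbp1 and highest for Hspb1, Hspa5, Ddit3, Trib3 and Cryab. The 1SA point is highest for Hspa1a, Dnajb1, Hspa8, Derl3 and Xbp1 and lowest for Hspb1, Ddit3, Trib3 and Cryab.

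The ER genes centred near WT in both mutants. The median difference of the 24 was 0.005 in 1SA against WT, 0.05 in 2SA against WT and 0.04 in 2SA against 1SA. In 1SA, 12 of 24 were above WT (50%), and in 2SA 15 of 24 were (62.5%), beside the 49.7% and 43.6% of all measured genes. Of the 24, 16 were higher in 2SA than in 1SA (66.7%), beside 45.6% of all measured genes. The highest level fell on the 2SA array for 13 of the 24 (54.2%) and for 4260 of the 13626 measured genes (31.3%). Differences beyond 0.21 were found for 6, 7 and 10 of the 24 genes (25%, 29.2% and 41.7%), again beside 35.1%, 35.0% and 45.5% of all measured genes. In 1SA against WT 2 of 24 were called (8.33%), Derl3 higher and Ddit3 lower, beside 7.75% of all measured genes. In 2SA against WT no ER gene reached 1.5-fold, and the 24 differences ran from -0.40 to 0.40.

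Hspa5 (BiP), the ER Hsp70 and the usual readout of the unfolded protein response, had a scaled level of 88.0 in WT, 92.3 in 1SA and 103 in 2SA. The 2SA array was the highest, by 0.23 against WT (1.17-fold), just beyond the error between spots. Hsp90b1 (GRP94), the ER Hsp90, had levels of 74.1, 73.4 and 73.5, which differed by at most 0.01. Hyou1, the ER Hsp110 that exchanges nucleotide on BiP, had levels of 0.249, 0.237 and 0.303 and was above WT in 2SA by 0.28, or by 0.09 with normexp, which is within the error between spots. BiP was thus highest in 2SA and GRP94 was level over the arrays, although BiP and GRP94 both hold the ER stress element.

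The lectin chaperones and the disulfide isomerases, which fold glycoproteins and form their disulfide bonds, differed little. Calr (calreticulin) had scaled levels of 38.0 in WT, 36.2 in 1SA and 43.4 in 2SA, and Canx (calnexin) 24.5, 24.5 and 25.5. Both were highest in 2SA, but for Calr alone did 2SA exceed 1SA by more than the limit, at 0.26. Pdia3, the isomerase that works with these lectins, had levels of 17.6, 15.5 and 16.2, Pdia4 6.73, 6.23 and 7.09, and Pdia6 121, 117 and 119. All 3 isomerases were lowest in 1SA, by -0.18, -0.11 and -0.05 against WT, and none of their differences exceeded 0.21.

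Of the secreted products of ER stress, Manf, a protein retained in the ER until calcium falls, was the ER gene furthest above WT in 2SA. Its scaled level was 7.55 in WT, 8.15 in 1SA and 9.95 in 2SA. It was higher than WT in 2SA by 0.40 (1.32-fold) and in 1SA by 0.11. Creld2 had levels of 17.2, 18.1 and 17.8, with differences of 0.07 and 0.05 from WT. Both are known to be induced by ER stress, and in 2SA only the difference of Manf from WT exceeded the error between spots.

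The ER co-chaperones split. Dnajb9 (ERdj4), an IRE1 and XBP1 target that returns BiP to IRE1, had scaled levels of 7.02 in WT, 6.14 in 1SA and 5.33 in 2SA. It was the ER gene furthest below WT in 2SA, at -0.40, and was also below it in 1SA, at -0.19, and its dimmer probe gave -0.24 and -0.17. Sdf2l1, a partner of Dnajb11 in the BiP cycle, had levels of 3.53, 3.52 and 3.96, 0.17 above WT in 2SA. Dnajb11 (ERdj3) had levels of 11.7, 11.5 and 13.5 on its brighter probe, 0.20 above WT in 2SA, but its dimmer probe gave -0.12, so its direction is unsettled. Dnajc3, which also restrains PERK, had levels of 6.55, 6.61 and 6.10, all within the error between spots. Dnajb9 thus stood opposite to Manf and Hspa5 in 2SA.

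Among the 6 ERAD genes, Derl3, Edem1 and Syvn1 were above WT in 1SA by more than the limit from repeated spots, and Derl3 alone reached 1.5-fold. In 1SA 5 of 6 were above WT, with a median of 0.16, and in 2SA 3 of 6, with a median of 0.02, where 49.7% and 43.6% of all measured genes were above WT. Derl3, a derlin that passes misfolded proteins out of the ER, had scaled levels of 0.246 in WT, 0.392 in 1SA and 0.254 in 2SA, so that 1SA was high, and WT and 2SA differed by 0.04. It was 1.59-fold above WT in 1SA (0.67) and 1.55-fold lower in 2SA than in 1SA (-0.63). The probe was dim, with only 19.4% of measured genes dimmer, and normexp took both differences below 1.5-fold, to 0.48 and -0.45. Edem1, which marks misfolded glycoproteins for removal, had levels of 6.04, 7.09 and 6.0, and Syvn1, the ubiquitin ligase HRD1, 27.1, 31.8 and 26.9. Both were 0.23 above WT in 1SA and at WT in 2SA, at -0.01 each. Sel1l, the partner of Syvn1, had levels of 2.70, 2.87 and 2.63 and stayed within the error between spots. Herpud1, which gathers this complex, had levels of 45.2, 46.3 and 46.7, also within that error. Selenos, a selenoprotein that brings the p97 ATPase to the ER membrane, went the other way with levels of 17.8, 17.1 and 20.8, 0.23 above WT in 2SA.

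Among the sensors and factors, Xbp1 had the order of Edem1 and Syvn1, with 1SA highest and 2SA lowest. Its scaled level was 95.6 in WT, 122 in 1SA and 83.6 in 2SA. The 1SA array was the high one, 0.35 above WT (1.27-fold), and 2SA was 0.54 below 1SA (1.45-fold). The single probe is not known here to separate spliced from unspliced Xbp1. Ern1 (IRE1) had levels of 1.31, 1.59 and 1.60, and was above WT by 0.27 in 1SA and 0.29 in 2SA. Atf6 had levels of 0.657, 0.731 and 0.759, above WT by 0.15 and 0.21. Both sensors were thus above WT in both mutants, although Atf6 in 1SA was within the error between spots and in 2SA barely past it. Xbp1 was above WT in 1SA, and its difference of 2SA from WT, -0.19, was within that error.

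Ddit3 (CHOP), the transcription factor at the end of the PERK branch, was low in 1SA. Its scaled level was 1.57 in WT, 0.986 in 1SA and 1.66 in 2SA. WT and 2SA differed by 0.08, and 1SA was 1.59-fold below WT (-0.67). In 2SA it was 1.68-fold above 1SA (0.75). With normexp the difference of 1SA from WT shrank to -0.53, short of 1.5-fold, and that of 2SA from 1SA stayed past it at 0.61. Ddit3 and Xbp1 therefore had opposite orders over the 3 arrays. The 9 ER genes with the ER stress element had median differences of 0.01, 0.04 and 0.002, and the 12 with a window and without it -0.01, 0.06 and 0.04.

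**Figure D4:**
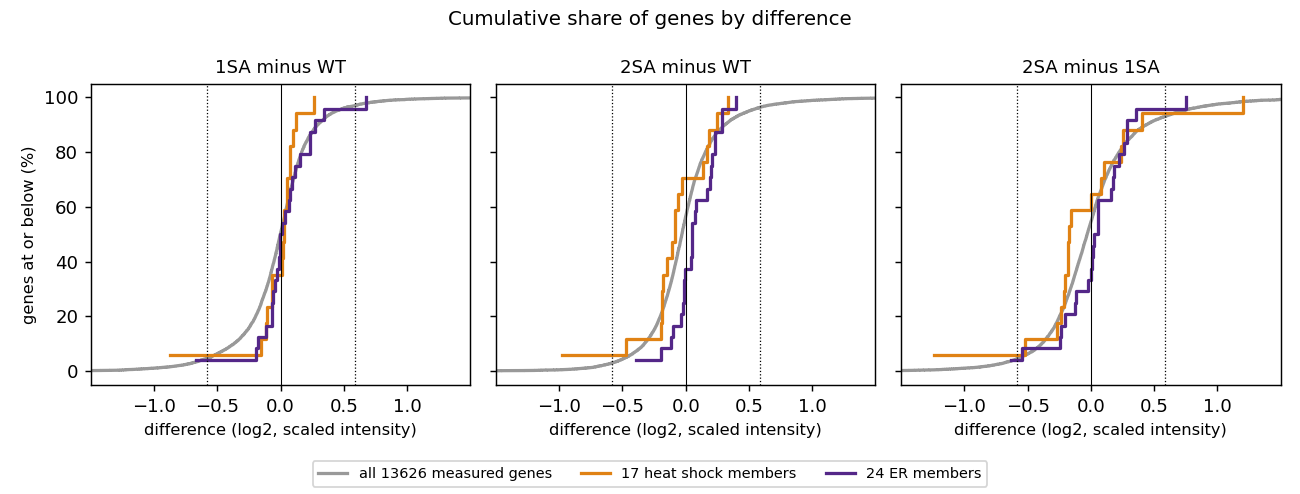
Cumulative share of genes, in percent, at or below each difference (log2 of scaled intensity), for 1SA minus WT, 2SA minus WT and 2SA minus 1SA, with all 13626 measured genes in grey, the 17 heat shock genes in orange and the 24 ER genes in purple. Dotted lines mark 1.5-fold and differences beyond 1.5 in size are not drawn. The orange curve lies to the left of the purple one around 0 in both comparisons of 2SA, with medians of -0.08 and 0.05 against WT and -0.18 and 0.04 against 1SA, and the curves run together in 1SA against WT.

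Other genes of the same pathways were taken from lists fixed by function. Of 35 further cytosolic and mitochondrial chaperones, co-chaperones and heat shock factors measured, none reached 1.5-fold in 1SA against WT. In 2SA against WT, 2 were higher and 1 lower (8.57%). The shares of all measured genes were 7.75% in 1SA and 6.8% in 2SA, the latter 3.79% higher and 3.02% lower. Cryab (alpha-B crystallin), a small heat shock protein of the family of Hspb1, had scaled levels of 1.74 in WT, 1.47 in 1SA and 4.90 in 2SA. It was 1.49 above WT in 2SA and 1.73 above 1SA, with 1SA the lowest array as for Hspb1. Hspa14, a ribosome-associated Hsp70, had levels of 8.61, 9.78 and 16, which is 0.89 above WT in 2SA. Bag2, which curbs the Hsp70 ligase CHIP, had levels of 0.390, 0.343 and 0.246, and was below WT in 2SA by -0.66. The median differences of the 35 were 0.004, -0.06 and -0.07. Of the cytosolic chaperonin CCT and its prefoldin partners, 0 of 14 were called in any comparison, beside 7.75%, 6.8% and 11.6% of all measured genes. Their medians were -0.02, 0.04 and 0.09, and 12 of 14 were higher in 2SA than in 1SA, beside 45.6% of all measured genes.

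Further ER genes were called at shares near or below those of all measured genes. Of 37 measured genes for ER folding, ERAD and stress signalling outside the 24, none reached 1.5-fold in 1SA against WT. In 2SA against WT, 1 was higher and 1 lower (5.41%), beside 7.75% and 6.8% of all measured genes in these 2 comparisons. The higher one was Crebrf, a regulator of ER stress signalling, at 0.62, and the lower one Creb3l2, an ER-bound transcription factor, at -0.65. The Crebrf probe was dim, with deposited intensities of 17.7, 23.4 and 29.9. The lowest of any measured gene were 12.5, 10.8 and 10.7. The medians were 0.04, -0.05 and -0.06. None of 29 genes for translocation into the ER, signal cleavage, N-glycosylation and transport out of the ER was called in any comparison. The shares of all measured genes were 7.75%, 6.8% and 11.6%. The medians of the 29 were 0.02, -0.06 and -0.05.

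Targets of PERK, ATF4 and CHOP differed in both directions. Of 12 measured, 1 was called higher and 1 lower in 1SA against WT (16.7%), 2 lower in 2SA against WT (16.7%), and 1 higher and 2 lower in 2SA against 1SA (25%), beside the 7.75%, 6.8% and 11.6% of all measured genes. In 2SA against 1SA 11 of 12 were lower, as were 54.4% of all measured genes. Trib3, a pseudokinase induced by ATF4 and CHOP, had deposited intensities of 2937 in WT, 1901 in 1SA and 3977 in 2SA, the order of Ddit3, and was after scaling 0.85 higher in 2SA than in 1SA. Chac1, a glutathione-degrading enzyme of the same branch, was highest where Trib3 was lowest, with scaled levels of 0.957, 2.25 and 1.36, and was above WT by 1.23 in 1SA and 0.51 in 2SA. Ddit4, an inhibitor of mTORC1 that is also raised by glucocorticoids and hypoxia, had levels of 6.65, 9.62 and 4.93 and was lower in 2SA than in 1SA by -0.96. Asns, asparagine synthetase, was below WT by -0.20 and -0.65, and Vldlr, a lipoprotein receptor, by -0.76 and -0.87. Trib3 alone of the 12 was thus higher in 2SA than in 1SA.

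Several other gene groups moved over the same 3 arrays, and their part in the values above was not tested. The summed scaled level of the 14 hepatocyte markers was 8450 in WT, 9230 in 1SA and 7500 in 2SA, with medians of 0.10 and -0.16 against WT, and 13 of 14 had their lowest level on 2SA. This order is that of the heat shock medians. The 11 Kupffer cell markers measured summed to 261, 187 and 159, with medians of -0.42 and -0.84 against WT. Such sums are weighted towards bright probes, here Cd5l (115, 86.1 and 64.4) and Marco (52.5, 22.7 and 17.4). In each mutant 9 of the 11 were below WT. Clec4f (0.45) and Vsig4 (0.07) were above it in 1SA, and C1qa (0.16) and C1qb (0.04) in 2SA. The 10 stellate cell markers measured summed to 79.6, 69.5 and 52.8, and all 10 were below WT in 2SA. Red blood cell genes summed to 203, 346 and 270, and all 8 were above WT in both mutants, highest in 1SA. The 10 sinusoidal endothelial markers summed to 95.7, 100 and 81.3, and the 10 granulocyte and monocyte markers to 192, 192 and 196. The 8 plasma and B cell markers measured summed to 18.6, 13.0 and 16.7, which leaves out Cd79a and Tnfrsf17, as they were not measured on all 3 arrays. Most of this last sum was Sdc1, at a scaled level of 11.5 in 1SA, where it was below WT by -0.57. The median of the 8 in 1SA against WT was 0.01, with 4 above WT and 4 below. Heat shock genes also follow body temperature and the clock, so a list of 14 measured cold-inducible and clock genes was set beside them. Their medians against WT were -0.08 in 1SA and -0.24 in 2SA. The cold-inducible Cirbp and Rbm3 were at -0.25 and -0.37 in 1SA, and at 0.18 and -0.03 in 2SA. In 2SA against WT 5 of the 14 (35.7%) were called, beside 6.8% of all measured genes. Of those 5, Nr1d1 (REV-ERB alpha) had scaled levels of 1.84, 1.15 and 3.24, Arntl (BMAL1) 0.162, 0.133 and 0.371, Per2 0.847, 0.804 and 0.511, and Ciart 1.42, 1.60 and 0.794, and Bhlhe41 was below WT in 2SA by -0.59. These genes were thus high or low on the 2SA array, in both directions. The 17 immediate early genes had medians of 0.21 and 0.33 against WT, and the 15 feeding-responsive genes 0.31 and 0.37.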

How the data were processed

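Mouse liver RNA, 1 sample per group, was labelled with Cy3 and hybridised by the authors to 3 Agilent SurePrint G3 arrays. The deposited intensity of a spot, from Feature Extraction 10.10.1.1 per the file headers, is its linear brightness after background subtraction and detrending, with no scaling from array to array. The authors' series matrix values were this intensity times 1 constant for each array (3.02, 3.08 and 2.81, source not stated), and served as an alternative. Spots with a non-uniformity or population outlier mark were dropped (181, 148 and 182 of 59305). Probe values were means of log2 intensity over the kept spots, less log2 of the 75th percentile on that array. A probe was measured where at least 50% of its spots were well above background. Probes were named through RefSeq accessions and the GRCm38.p6 gene table (26727 probes, names only, since the design was placed on mm9). For a gene with several probes measured on all 3 arrays, the brightest was used. With 1 array per group no test was run, and the number of arrays limits the precision.

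The genes, lists and alternatives were chosen with earlier results of these data known. Values are given for genes past 1.5-fold in any of 3 comparisons and for others by role, and from the related chaperone, ER, ATF4 and clock lists for called genes. The marker, immediate early and feeding lists are given as summaries. Single marker genes that weigh on a sum or go against it, and Cirbp and Rbm3 as cold-inducible genes, were named after values were seen. Dnajb1, Trib3 and Cryab in the plot of levels, the limit from repeated spots, the promoter searches and the background of brighter genes were chosen after values were seen. As alternatives, 8 changes were tried, namely the array median as the scale, quantile normalisation, normexp with an offset of 50 on median spot and local background brightness, the series matrix, no filter, a stricter filter, the mean of a gene's probes and a 2-fold threshold. The computation was tested on simulated data. Tools were R 4.3.3, limma 3.58.1, Python 3.11.15, numpy 2.4.6, pandas 2.3.3 and matplotlib 3.10.9.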

Additional observations from a re-analysis of the deposited data

Results flagged for a closer look

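Among the 41 heat shock and ER genes and the related lists of chaperone, chaperonin, ER and PERK, ATF4 and CHOP target genes, there were 5 for which the 1SA and 2SA arrays lay on opposite sides of WT, each by more than the limit of 0.21 from repeated spots. With 1 array per group these differences between the mutants were not tested. Of the 41 they were Hspa1a, at -1.24 in 2SA against 1SA, and Hspb1, at 1.20. From the related lists they were Cryab at 1.73, Trib3 at 0.85 and Ddit4 at -0.96. Hspa1a and Ddit4 were above WT in 1SA and below it in 2SA, and Hspb1, Cryab and Trib3 the reverse.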

How the results depend on the processing

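No paired analysis was possible because there was 1 array a group and no test, and for the same reason no array could be left out. The medians of the heat shock and ER genes moved by at most 0.10, the SD of a difference between spots, under every alternative run, except the heat shock median of 2SA against 1SA, which was -0.051 with quantile normalisation and -0.18 as reported. Normexp left 0 ER genes called in 1SA against WT and 1 in 2SA against 1SA, as Derl3 went to 0.48 and -0.45 and Ddit3 to -0.53 in 1SA, and it called no gene that was not called before. The stricter filter kept 37 of the 41 genes and left 0 heat shock genes called in 2SA against WT and 1 in 2SA against 1SA, and 1 ER gene in each of 1SA against WT and 2SA against 1SA, because dim probes were removed. At 2-fold, 0 heat shock genes were called in 1SA and 0 in 2SA against WT, and 0 ER genes in 1SA against WT and 0 in 2SA against 1SA. Of 123 single differences, 12 moved by more than 0.10 with quantile normalisation, 8 with normexp, 4 with the mean of probes and 0 with the array median, the series matrix or no filter. No called value changed sign. Among differences short of 1.5-fold the sign changed for 12 with quantile normalisation, 11 with the array median, 7 with normexp and 4 with the mean of probes. The direction and array order of such genes can therefore depend on the processing. Over all measured genes, the share of called genes that were higher in 2SA than in WT was 55.7%, and 68.8% with normexp, 47.6% without a filter and 63.8% with the stricter one. With normexp the difference of 2SA from 1SA shrank to 0.16 for both Hsf1 and Hyou1, with quantile normalisation to -0.09 for Hspd1 and -0.16 for Syvn1, and with the mean of probes to 0.03 for Dnajb11. Signal over background limits Hspa1a, Derl3 and Hyou1 most, as dim probes on 1 spot each.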
